A study of Rattus norvegicus with 10 samples.

Results

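Reactive astrocyte genes are described here as a set of 10 named genes, Gfap, Vim, Serpina3n, Lcn2, Cd44, Osmr, Steap4, S1pr3, Timp1 and Cp, among 17168 genes measured by RNA sequencing of the left hippocampus. The members are a list of symbols, with no measured value in the rule, drawn up with earlier results of these data known. All 10 were found in both deposited tables. The 10 libraries came from male rats of the genotype labelled Tg-AD (TgF344-AD), aged 11 months, 1 rat per library. The strain is a transgenic model of Alzheimer's disease whose transgenes are driven by the mouse prion promoter, and every rat in both groups was transgenic. The 5 untreated rats ate plain rodent chow. The 5 treated rats ate chow that carried RG2833 at 750 mg per kg, from 5 months of age for 6 months. RG2833 blocks 2 histone deacetylases, HDAC1 and HDAC3. A sentence of the series' design text names ibudilast instead, whereas the title and the sample labels name RG2833. The single comparison, RG2833 over untreated, asks what the drug does to gene expression in transgenic males. No wild-type rats were analysed here, so no value below is a change caused by the transgenes.

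Astrocytes respond to amyloid, injury and cytokines by enlarging their intermediate filament skeleton and by inducing secreted and membrane proteins, a state called reactive. Cytokines of the interleukin-6 family, such as oncostatin M, act through receptors paired with gp130 and through the transcription factor Stat3, which is a main route to Gfap induction. Several of these genes are not private to astrocytes: vimentin is also made by endothelium, ependyma and fibroblasts, and ceruloplasmin by choroid plexus and meninges. In whole tissue, fewer cells of a type and less RNA per cell cannot be told apart.

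None of the 8 members that could be tested passed the adjusted threshold between RG2833 and untreated rats, and neither did any other gene in edgeR's test (0% of 12161). Gfap, the filament gene that defines the state, had a mean 1.14-fold higher in RG2833. Vim and Cp had means of 0.607 and 0.545 of the untreated level. In edgeR both had a p below 0.05 before adjustment only, as 5.66% of all genes did. Their exact permutation p was 0.0635 and 0.119. Without untreated replicate 2, Vim and Cp were at 0.751 and 0.782 of the untreated level. The other 5 tested members had log2 fold changes between -0.24 and 0.04. Serpina3n and Lcn2, secreted proteins that rise in strong reactive states, gave at most 5 counts in any library.

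The promoter windows of 4 members are printed because their data bear on later paragraphs. Vim and Cp varied together most closely, and Steap4 and Serpina3n are the members whose window holds the Stat motif TTCNNNGAA. Each window runs from 250 bases before to 50 bases after the gene's start, 5′ to 3′ on the gene's strand, from RefSeq on the GRCr8 assembly, where all 10 members matched by symbol. Capitals mark a match to the Stat motif, to the AP-1 motif TGANTCA or to the GC box GGGCGG, on either strand. The windows are chr17:81577011-81577310, plus strand for Vim, chr2:104368420-104368719, plus strand for Cp, chr4:27054720-27055019, minus strand for Steap4 and chr6:129088142-129088441, plus strand for Serpina3n.
Vim: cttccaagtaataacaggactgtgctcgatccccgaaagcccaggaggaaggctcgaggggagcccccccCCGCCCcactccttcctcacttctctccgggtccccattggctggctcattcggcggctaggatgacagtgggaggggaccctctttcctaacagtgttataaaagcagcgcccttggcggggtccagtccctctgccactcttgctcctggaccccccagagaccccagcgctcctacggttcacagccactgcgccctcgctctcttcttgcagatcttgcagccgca
Cp: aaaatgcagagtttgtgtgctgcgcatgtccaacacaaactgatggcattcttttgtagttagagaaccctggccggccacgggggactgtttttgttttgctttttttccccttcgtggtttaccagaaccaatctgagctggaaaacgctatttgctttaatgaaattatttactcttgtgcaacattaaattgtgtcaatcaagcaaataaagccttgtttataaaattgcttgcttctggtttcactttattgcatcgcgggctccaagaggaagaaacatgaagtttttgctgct
Steap4: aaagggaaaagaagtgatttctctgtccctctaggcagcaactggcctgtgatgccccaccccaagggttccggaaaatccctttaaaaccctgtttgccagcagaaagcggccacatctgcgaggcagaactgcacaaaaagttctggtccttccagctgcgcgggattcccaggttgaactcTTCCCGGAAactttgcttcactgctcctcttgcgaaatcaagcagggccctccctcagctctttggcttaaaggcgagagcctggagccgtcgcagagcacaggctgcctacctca
Serpina3n: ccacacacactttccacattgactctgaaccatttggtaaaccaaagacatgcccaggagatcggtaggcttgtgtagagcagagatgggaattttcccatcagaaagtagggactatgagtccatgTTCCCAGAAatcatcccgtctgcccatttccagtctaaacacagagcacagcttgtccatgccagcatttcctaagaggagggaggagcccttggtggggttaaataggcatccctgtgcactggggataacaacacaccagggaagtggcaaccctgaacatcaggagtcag

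The Stat motif, which reads the same on both strands, starts 66 bases before the Steap4 start and 123 bases before the Serpina3n start. It was in 2 of the 10 member windows and in 8.87% of the 33469 windows of the table. The AP-1 motif, also the same on both strands, was in 1 member window, that of Osmr, and in 7.33% of all windows. The GC box was in 4 member windows, those of Vim, Osmr, S1pr3 and Timp1, and in 33.1% of all windows. The Gfap, Lcn2, Cd44 and Cp windows held none of the 3. No printed window holds more than 1 of these matches, so none overlap, and a match is a match of letters only.

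Values per library are given as CPM, a gene's counts scaled to library size with TMM (trimmed mean of M-values) factors. Total expected counts ran from 15118203 to 18533520 per library. At this depth 3 counts correspond to 0.154 to 0.208 CPM. Of the 10 members, 8 passed the filter on low counts and 2, Serpina3n and Lcn2, did not. Markers of hippocampal neurons (Prox1, Wfs1, Fibcd1 and others, 9 genes found) had sums of 611 to 1527 CPM (untreated) and 761 to 1368 CPM (RG2833). The lowest sum was that of untreated replicate 3. Single genes spread more widely. Prox1 was at 4.3 to 50.5 CPM in untreated and 21.5 to 50 CPM in RG2833 libraries. Fibcd1 was at 35.5 to 297 and 123 to 303 CPM, and Wfs1 at 135 to 390 and 164 to 320 CPM. The part of this spread in the members' values was not tested. In 2 libraries, untreated replicate 2 and RG2833 replicate 1, choroid plexus RNA was abundant: Ttr, the plasma thyroxine carrier made there, was at 6929 and 8190 CPM, against 3.11 to 236 CPM in the other 8.

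With edgeR's quasi-likelihood test over 12161 genes, 0 of the 8 tested members had an adjusted p under 0.05, where 0% of all tested genes did. At an unadjusted p under 0.05 there were 2 of 8, Vim and Cp, both lower, against 5.66% of all genes in either direction, 2.94% higher and 2.71% lower. In DESeq2 the count of members was 0 after adjustment, where 7 of all genes (0.0576%) passed, and 3 before it, with Gfap as the third, where 750 of all genes (6.17%) passed. The groups overlapped for each of the 8 members, whereas they did not overlap for 1% of all genes. Of the 8, 2 had a log2 fold change above 0, as 46.5% of all genes did, and 6 below, with a median of -0.20, beside a median of -0.01 over all genes. Without untreated replicate 2 the median of the members was 0.04.

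**Figure D1:**
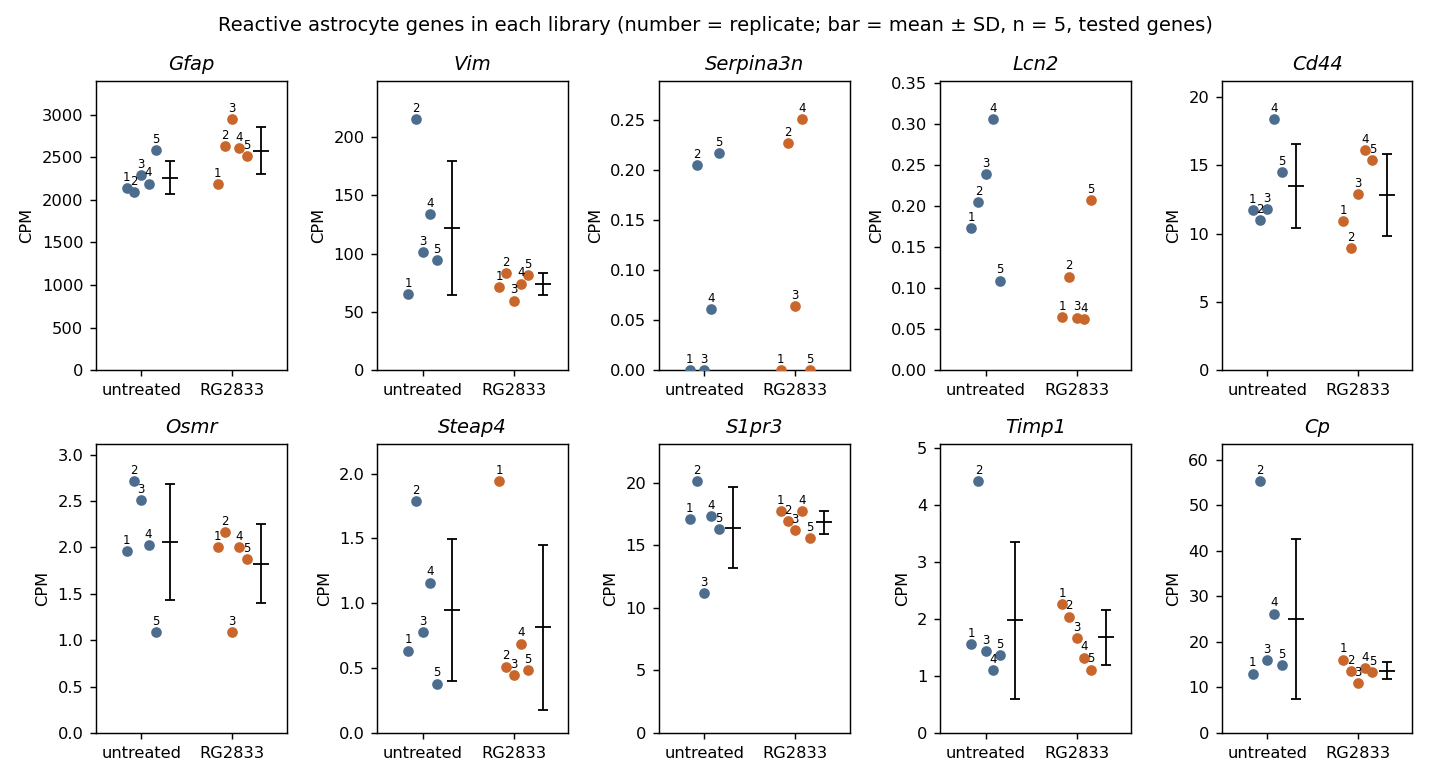
CPM of the 10 reactive astrocyte genes (vertical axes from 0) in each untreated and RG2833 library, with the replicate number above each point. Bars give mean ± SD (n = 5) for the 8 tested genes. Untreated replicate 2 is the highest untreated point for Vim, Osmr, Steap4, S1pr3, Timp1 and Cp, and Serpina3n and Lcn2 stay at or below 0.306 CPM.

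Gfap encodes glial fibrillary acidic protein, the main astrocyte filament. It was at 2135, 2094, 2293, 2191 and 2582 CPM in untreated replicates 1 to 5 and at 2184, 2631, 2953, 2612 and 2518 CPM in RG2833 replicates 1 to 5. The untreated mean was exceeded in 4 of 5 RG2833 rats; untreated replicate 5 and RG2833 replicate 1 account for the overlap of the groups. The means were 2259 ± 196 and 2579 ± 275 CPM (SD, n = 5 each). The log2 fold change was 0.19 (SE 0.10, 95% interval -0.03 to 0.41; edgeR adjusted p = 0.841), and the two-sided exact permutation p was 0.0794. The interval runs from 0.982-fold to 1.33-fold. Gfap varied least of the members in untreated rats, with a coefficient of variation of 8.65%. It stayed higher in RG2833 in all 20 alternative fits, from 0.14 to 0.25 on the log2 scale, with adjusted p from 0.42 to 1. Its unadjusted edgeR p fell under 0.05 without untreated replicate 5 (0.0396) or without RG2833 replicate 1 (0.0241).

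Vim encodes vimentin, the filament partner of Gfap in reactive astrocytes. It was at 65.4, 215.5, 101.1, 133.9 and 94.5 CPM in the untreated and at 71.5, 83.5, 59.7, 74.3 and 81.7 CPM in the RG2833 libraries. The RG2833 values were all under the mean of the untreated rats (5 of 5), but untreated replicate 1 was as low as they were. The untreated values spread over 47.2% of their mean (coefficient of variation), the RG2833 values over 12.8%. The means were 122 ± 57.6 and 74.2 ± 9.48 CPM (SD, n = 5 each). The log2 fold change of Vim was -0.72 (SE 0.27, 95% interval -1.31 to -0.13; edgeR adjusted p = 0.841, unadjusted 0.0217). The exact permutation p was 0.0635. Without untreated replicate 2 the other untreated values averaged 98.7 ± 28.1 CPM (n = 4) and the log2 fold change was -0.41 (edgeR adjusted p = 1, unadjusted 0.046). Without both choroid-rich libraries it was -0.41 (edgeR adjusted p = 0.946, unadjusted 0.0755), and without RG2833 replicate 3 it was -0.65 (adjusted 0.884, unadjusted 0.0511). The 2 filament genes thus had opposite signs, and the difference between them was not tested.

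Cp encodes ceruloplasmin, a copper-carrying ferroxidase that astrocytes display on their surface. Its values were 13, 55.2, 15.9, 26.2 and 14.8 CPM in untreated and 16.1, 13.6, 11, 14.2 and 13.3 CPM in RG2833 libraries. As for Vim, untreated replicates 2 and 4 were the highest of the 10, and the remaining 8 libraries lay together between 11 and 16.1 CPM. The means were 25 ± 17.6 and 13.6 ± 1.84 CPM (SD, n = 5 each). The log2 fold change was -0.88 (SE 0.37, 95% interval -1.69 to -0.06; edgeR adjusted p = 0.841, unadjusted 0.0383), with an exact permutation p of 0.119. Without untreated replicate 2 it was -0.36 (edgeR adjusted p = 1, unadjusted 0.106), and without both choroid-rich libraries -0.43 (adjusted 0.946, unadjusted 0.0762). The unadjusted edgeR p of Cp was also above 0.05, from 0.0598 to 0.0787, without untreated replicate 4 or RG2833 replicate 2, 3, 4 or 5.

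Timp1 encodes a secreted inhibitor of matrix metalloproteinases. It was at 1.56, 4.41, 1.43, 1.1 and 1.36 CPM in untreated and at 2.26, 2.04, 1.66, 1.32 and 1.11 CPM in RG2833 libraries, on 16 to 86 counts. A single library, untreated replicate 2, stood above the rest, and 3 of the RG2833 values exceeded the other 4 untreated ones. The log2 fold change was -0.24 (SE 0.39, 95% interval -1.11 to 0.63; edgeR adjusted p = 0.959; exact permutation p = 0.873). Its sign turned to 0.30 without untreated replicate 2 (edgeR adjusted p = 1).

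Steap4, a membrane metalloreductase, rested on 7 to 35 counts. It was at 0.635, 1.79, 0.776, 1.16 and 0.38 CPM in untreated and at 1.94, 0.511, 0.448, 0.689 and 0.484 CPM in RG2833 libraries. The 2 highest values belonged to the 2 choroid-rich libraries, 1 in each group, and untreated replicate 4 came next. The log2 fold change was -0.23 (SE 0.51, 95% interval -1.36 to 0.90; edgeR adjusted p = 0.976), which was -0.83 without RG2833 replicate 1 (adjusted 0.69), -0.46 without both (adjusted 0.967) and 0.15 without untreated replicate 2 (adjusted 1).

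**Figure D2:**
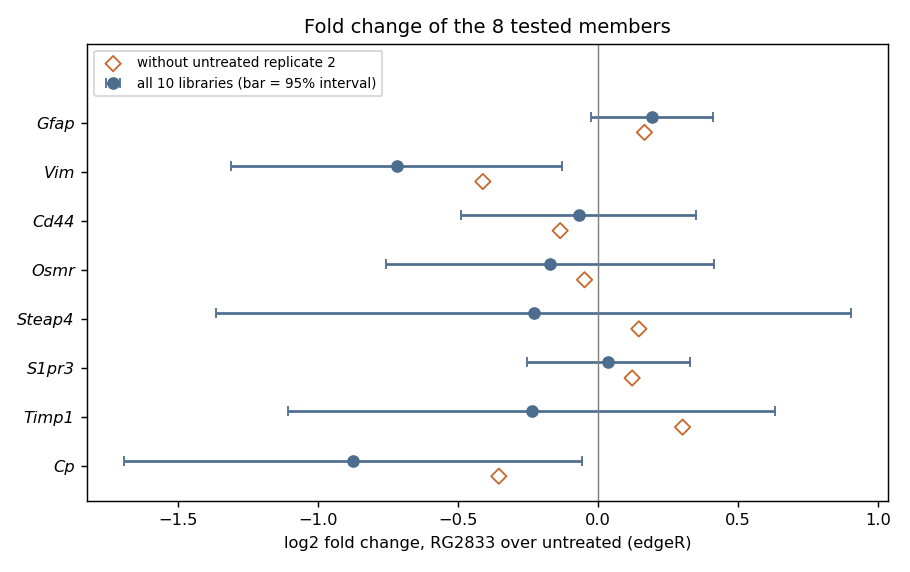
Log2 fold change of RG2833 over untreated (horizontal axis) for the 8 tested members, with 95% intervals from edgeR over all 10 libraries (filled circles) and the value without untreated replicate 2 (open diamonds). The intervals of Vim and Cp lie below 0, and leaving out 1 library moves Vim from -0.72 to -0.41 and Cp from -0.88 to -0.36.

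The 3 receptors among the members had log2 fold changes between -0.17 and 0.04, each with an interval that spans 0. Cd44, the hyaluronan receptor, was at 11.7, 11, 11.8, 18.4 and 14.5 CPM in untreated and at 10.9, 8.92, 12.9, 16.1 and 15.4 CPM in RG2833 libraries, so that the groups overlapped over most of their range. Its log2 fold change was -0.07 (SE 0.19, 95% interval -0.49 to 0.35; edgeR adjusted p = 0.98), and its sign turned when untreated replicate 4 (0.07) or RG2833 replicate 2 (0.04) was left out. Osmr, the oncostatin M receptor subunit that pairs with gp130, was at 1.96, 2.71, 2.51, 2.02 and 1.09 CPM in untreated and at 2, 2.16, 1.09, 2 and 1.87 CPM in RG2833 libraries. A single library in each group was low at 1.09 CPM, and the others lay between 1.87 and 2.71 CPM. The Osmr log2 fold change was -0.17 (SE 0.27, 95% interval -0.76 to 0.41; edgeR adjusted p = 0.958). It was -0.03 without RG2833 replicate 3, -0.05 without untreated replicate 2 and -0.33 without untreated replicate 5. S1pr3, a receptor for sphingosine phosphate, was at 17.1, 20.1, 11.2, 17.3 and 16.3 CPM in untreated and at 17.7, 16.9, 16.2, 17.7 and 15.6 CPM in RG2833 libraries. Apart from untreated replicate 3 at the bottom and untreated replicate 2 at the top, the S1pr3 values lay within 15.6 to 17.7 CPM. Its log2 fold change was 0.04 (SE 0.13, 95% interval -0.26 to 0.33; edgeR adjusted p = 0.988), an interval that runs from 0.838-fold to 1.25-fold.

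Serpina3n and Lcn2 were at or near the limit of detection. Serpina3n, a secreted inhibitor of serine proteases, had 0, 4, 0, 1 and 4 counts in untreated and 0, 4, 1, 4 and 0 counts in RG2833 libraries, 9 in each group. Lcn2, lipocalin-2, which binds iron-carrying siderophores, had 3, 4, 4, 5 and 2 counts in untreated and 1, 2, 1, 1 and 3 in RG2833 libraries, 18 against 8 in all. With no filter, edgeR gave an unadjusted p of 0.0883 and an adjusted p of 0.869 for Lcn2, and of 0.879 and 0.994 for Serpina3n. The two-sided exact permutation p was 0.0556 for Lcn2 and 0.762 for Serpina3n. What difference could be detected at these counts was not tested, and no fold change is given. The table's other Serpina3 rows, Serpina3c and Serpina3m, held 1 and 0 counts in all, and how the counting divided reads among such relatives is not given in the sources used here.

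Markers of other cells that make Vim and Cp were read in the same libraries, since untreated replicates 2 and 4 were highest for both genes. The fibroblast and meningeal list (10 of 10 genes tested, among them Dcn and 3 collagens) had all 10 genes at a log2 fold change below 0, with a median of -0.90 and 0 at an unadjusted p under 0.05 in edgeR (0 adjusted). Its summed level was 78.6 to 1402 CPM in untreated and 71.8 to 864 CPM in RG2833 libraries. The 2 highest sums, 1402 and 864 CPM, were those of untreated replicate 2 and RG2833 replicate 1. The genes of the list did not share 1 pattern: Col1a1 was at 112 CPM in untreated replicate 2 and 14.8 CPM in RG2833 replicate 1, whereas Igf2 was at 747 and 652 CPM in the same libraries. In the other untreated libraries Col1a1 was at 6.84 to 13.5 CPM, beside 6.76 to 14.8 CPM in RG2833 libraries. Igf2 was at 24.9 to 75.1 CPM there, beside 23.5 to 652 CPM in RG2833 libraries. Fold changes of this list without untreated replicate 2 are not given here. In RG2833 replicate 1, where Ttr was higher than in untreated replicate 2, Vim was at 71.5, Cp at 16.1 and Timp1 at 2.26 CPM, against 215.5, 55.2 and 4.41 CPM in untreated replicate 2. The ependymal list (6 genes found, 5 tested) summed to 26.4 to 84.1 CPM in untreated and 23.2 to 60.5 CPM in RG2833 libraries. Its sum was highest in untreated replicate 2, then in RG2833 replicate 1 (60.5 CPM) and untreated replicate 4 (53.8 CPM). Foxj1, the regulator of motile cilia, was at 41.6, 34.5 and 18.4 CPM in these 3 libraries, while Tmem212 was at 4.15, 2.19 and 5.76 CPM, highest in untreated replicate 4. Of the 5 tested genes, 4 had a log2 fold change below 0, with a median of -1.11 over the 5, and Rarres2 had one of 0.03. Ccdc153 of that list had a log2 fold change of -1.11 (edgeR unadjusted p = 0.0339, adjusted 0.841). The choroid plexus list (12 genes, all tested) summed to 141 to 10910 CPM and 110 to 11831 CPM. No defining marker of these 3 lists was at 0 in all libraries. Their part in the Vim and Cp differences was not tested.

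**Figure D3:**
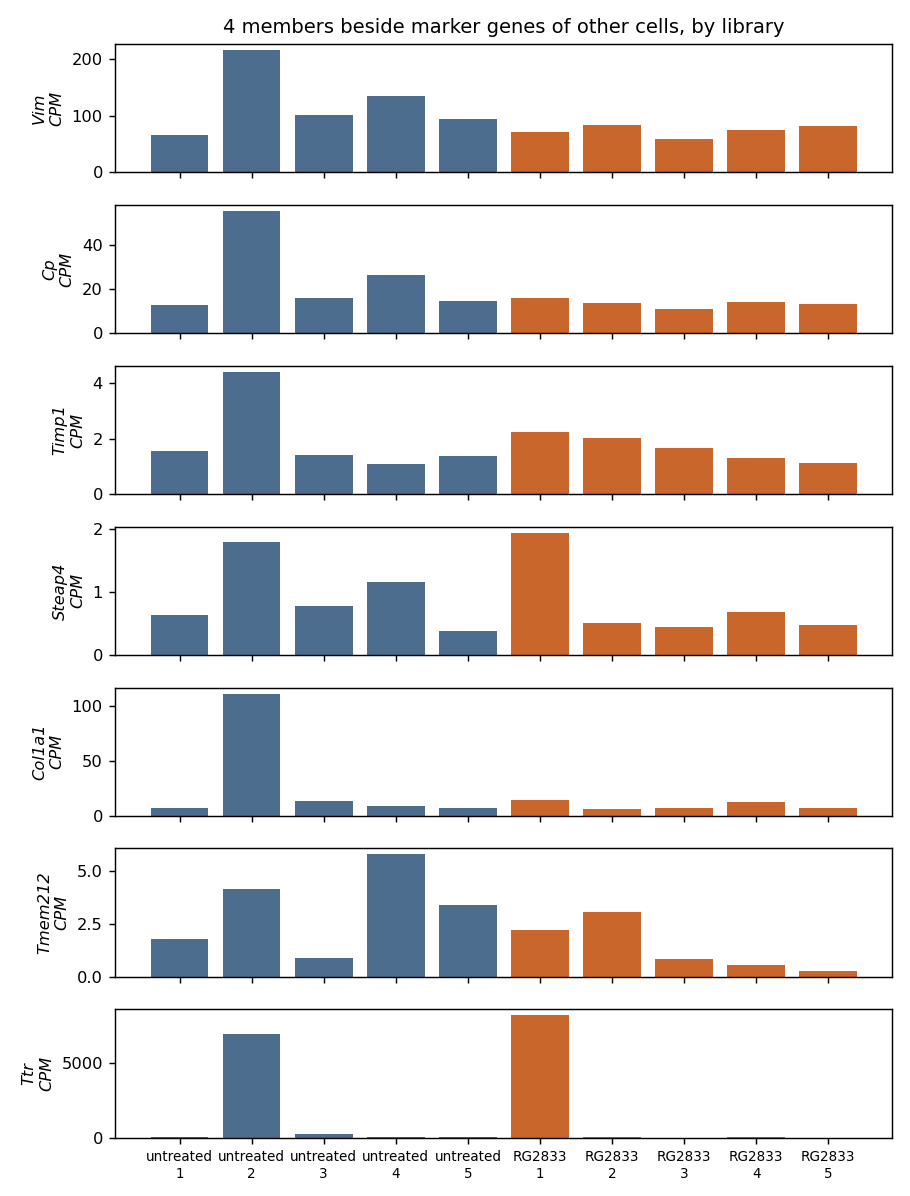
CPM (vertical axes from 0) of Vim, Cp, Timp1 and Steap4 above Col1a1 (fibroblasts and meninges), Tmem212 (ependyma) and Ttr (choroid plexus) in the 10 libraries; the marker genes were picked after their values were seen. Untreated replicate 2 is highest for Vim, Cp, Timp1 and Col1a1, while Ttr and Steap4 are high in RG2833 replicate 1 as well.

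Vascular and microglial markers, other holders of Vim and Cd44 transcripts, were spread more evenly. The endothelial list was at 316 to 621 CPM in untreated and 378 to 695 CPM in RG2833 libraries, with 7 of 10 genes higher and a median log2 fold change of 0.18. The mural list was at 153 to 254 and 161 to 240 CPM, with 5 of 8 genes higher; Tagln, a smooth muscle actin-binding protein, had a log2 fold change of -0.37 (edgeR unadjusted p = 0.0194, adjusted 0.841). The microglial list was at 612 to 1126 and 655 to 914 CPM, with 7 of 10 genes higher. None of these lists had a gene past the adjusted threshold or had a defining marker at 0 in all libraries, and their part in the members' values was not tested.

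The members were also set against genes of resting astrocytes. For each library the mean log2 CPM of 14 homeostatic astrocyte genes, such as the glutamate transporter Slc1a2, the water channel Aqp4 and the folate enzyme Aldh1l1, was subtracted from the log2 CPM of the member. Whether this mean measures the amount of astrocyte RNA was not tested. That reference itself had a higher mean in RG2833, at 8.75 ± 0.30 against 8.38 ± 0.26 (SD, n = 5 each; two-sided exact permutation p = 0.0873). All 14 of its genes had a log2 fold change above 0, with a median of 0.40, against 46.5% of all genes above 0. At an unadjusted p under 0.05 there were 5 of the 14, Gja1, Gjb6, Glul, Kcnj10 and Fgfr3, from 0.32 to 0.60, where 2.94% of all genes were higher at that threshold, and 0 passed the adjustment (edgeR adjusted p = 0.841 for each). The summed homeostatic level was highest in untreated replicate 3 and RG2833 replicates 4 and 5, at 13488, 14770 and 15575 CPM, against 7922 to 11749 CPM in the other 7. In the same 3 libraries the microglial sums were 1126, 857 and 914 CPM, the endothelial sums 621, 544 and 695 CPM, and the hippocampal neuron sums 611, 766 and 761 CPM. The microglial and endothelial sums of these 3 were the highest of the 10 and the neuronal sums the lowest, and their part in the homeostatic level, and in values relative to it, was not tested. Slc1a2 had a log2 fold change of 0.45 (SE 0.21), Aqp4 of 0.14 (SE 0.13) and Aldh1l1 of 0.18 (SE 0.17).

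Because the reference was higher in RG2833, nearly every gene had a lower mean in RG2833 on this relative scale: 97.9% of the 12161 tested genes, with a median difference of -0.38 on the log2 scale. The 8 tested members were all among them, which is close to that share, and their differences are therefore read against -0.38 and not against 0. Of the 8, 6 lay below that median and 2, Gfap and S1pr3, above it. An exact permutation p under 0.05 was reached by 2 of the 8, Vim and Cp, where 18.7% of all genes reached it, and 18.7% did so with a lower mean in RG2833.

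Gfap relative to the reference was 2.75 ± 0.26 in untreated and 2.57 ± 0.28 in RG2833 rats (SD, n = 5 each), a difference of -0.18 that ran from -0.28 to -0.10 as each library was left out. Vim relative to the reference was -2.24, -0.39, -2.16, -1.33 and -1.73 in untreated and -2.17, -2.26, -2.78, -2.81 and -2.72 in RG2833 libraries. Untreated replicate 2 stood highest, and the groups overlapped through untreated replicate 1 and RG2833 replicate 1. The Vim difference was -0.98 (exact permutation p = 0.0159) and ran from -1.15 to -0.69 over left-out libraries. The Cp difference was -1.02 (exact permutation p = 0.0476), which was -0.62 without untreated replicate 2 (exact permutation p = 0.0873). Its p was above 0.05 in 6 of the 10 sets that left out a library, those without untreated replicate 2 or 4 or RG2833 replicate 2, 3, 4 or 5. The remaining 5 members had differences of -0.45 (Cd44), -0.51 (Osmr), -0.61 (Steap4), -0.31 (S1pr3) and -0.45 (Timp1), with exact permutation p from 0.0714 to 0.421. Left-out libraries moved them over wide ranges, from -0.60 to -0.33 for Cd44, -0.69 to -0.34 for Osmr, -1.05 to -0.30 for Steap4, -0.55 to -0.17 for S1pr3 and -0.67 to -0.07 for Timp1. The weakest value was the one without untreated replicate 2 for Osmr, Steap4, S1pr3 and Timp1. Without untreated replicate 3 the count of members with an exact permutation p under 0.05 was 4 of 8, with Cd44 (0.00794) and S1pr3 (0.0317) added, where 53.4% of all genes had one. Without RG2833 replicate 1 it was 3 of 8, with Steap4 added (0.0397, exact permutation), where 42.8% of all genes had one. Without both choroid-rich libraries it was again 3 of 8, with Steap4 added (0.0286, exact permutation), where 16% of all genes had one. With the 70 regroupings of that set, 0.0286 is the smallest p the test can give. In the remaining 8 sets that left out 1 library it was 1 or 2 of 8, where 9.95% to 13.7% of all genes had one. These 8 comparisons share a reference, and the p-values are not adjusted.

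**Figure D4:**
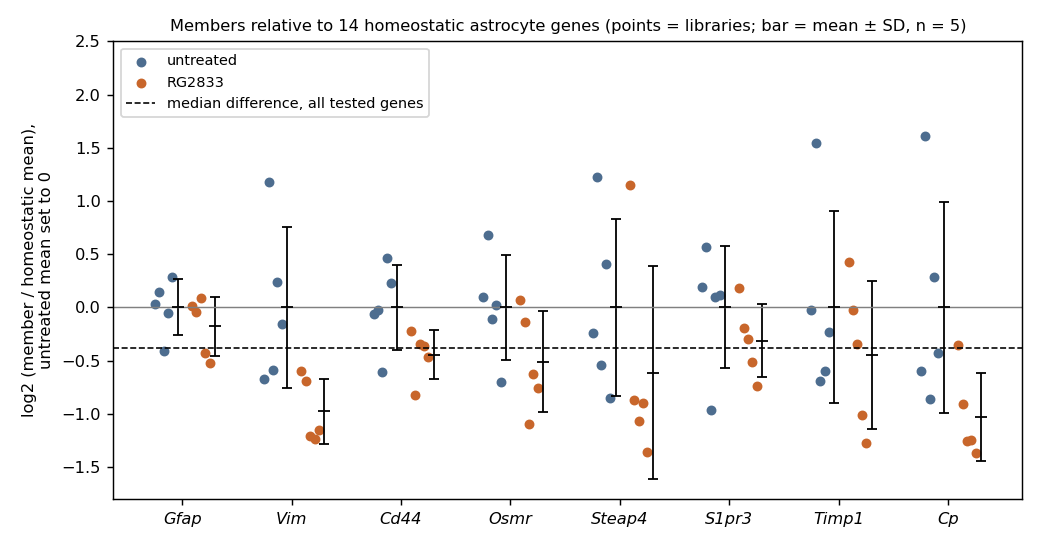
Log2 ratio of each tested member to the mean of 14 homeostatic astrocyte genes (vertical axis), with the untreated mean of each gene set to 0, for untreated and RG2833 libraries; bars give mean ± SD (n = 5). The dashed line is the median difference over all tested genes, -0.38; the RG2833 means of Vim (-0.98) and Cp (-1.02) are farthest below it, Gfap (-0.18) and S1pr3 (-0.31) lie above it, and the groups overlap for each gene.

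Over the 10 libraries, the Pearson r of log2 CPM of Gfap with the other 7 tested members ran from -0.758 with Steap4 to 0.102 with Cd44. For Steap4 the Spearman rho was -0.697 (permutation p = 0.0111 for r and 0.0302 for rho; adjusted over the 7 relations 0.078 and 0.212), and r was -0.686 without the 2 libraries farthest from the median of Gfap. None of the 7 relations had an adjusted permutation p under 0.05. Gfap with Vim gave r = -0.537 and rho = -0.345 (permutation p = 0.106 and 0.331), and r = -0.0614 without the 2 libraries farthest from the Gfap median. It was -0.496 without the choroid-rich libraries and -0.285 with the group means removed.

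Vim and Cp were the pair closest to each other among all 28 pairs of tested members, a pair picked after its values were seen. Their r was 0.949 and rho 0.782 (permutation p = 0.00036 and 0.0109, adjusted over 28 pairs 0.0101 and 0.152). Untreated replicates 2 and 4 are the libraries farthest from the Vim median, and without them r was 0.672. It was 0.933 with the group means removed, 0.964 within the 5 untreated libraries and 0.508 within the 5 RG2833 libraries. Cd44 and Timp1 ran opposite to each other, with r = -0.682 and rho = -0.903 (permutation p = 0.0253 and 0.00077, adjusted over 28 pairs 0.163 and 0.0216) and r = -0.713 without the 2 libraries farthest from the Cd44 median.

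The 5 genes outside the set whose log2 CPM was most like that of Gfap over the 10 libraries, by Pearson r, were Mmp24 (0.942), Pla2g7 (0.927), Fndc5 (0.917), St3gal2 (0.899) and Ubl4a (0.887). Within a library, all genes share its depth and scaling in these values, which describe likeness only. None of the 5 passed the adjusted threshold. St3gal2 and Pla2g7 had log2 fold changes of 0.15 and 0.18, with edgeR unadjusted p of 0.0236 and 0.0379 (adjusted 0.841 for both). By the same measure Vim was most like Zbtb5 (0.944), Cd163 (0.944), Anxa1 (0.939), Hirip3 (0.93) and S100a11 (0.918), a list added after the Vim values were seen. Cd163, a scavenger receptor of macrophages at brain borders, was at 4.81 CPM in untreated replicate 2 and at 0.576 to 1.67 CPM elsewhere. Cd163 and Anxa1 had log2 fold changes of -1.19 and -0.88, with edgeR unadjusted p of 0.0417 and 0.0296 (adjusted 0.841 for both).

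The cytokine route to these genes held no called gene, as was so for all genes in edgeR's test. Of 16 genes of the gp130, Jak and Stat3 route, 12 were tested, with 8 higher, 4 lower and a median log2 fold change of 0.01. The adjusted threshold was passed by 0 of the 12, where 0% of all genes passed it. An unadjusted p under 0.05, which 5.66% of all genes had (2.94% higher), was found for 1 of the 12. This was Cntfr, the receptor subunit for ciliary neurotrophic factor, with 77.2 ± 6.63 CPM against 94 ± 12.1 CPM under RG2833 (n = 5 each) and a fitted log2 difference of 0.28 (SE 0.10; edgeR unadjusted p = 0.0129, adjusted 0.841). Among ligands, Osm, Lif, Il6 and Il11 were below the filter, and Osm reached at most 3 counts. Stat3 was at 78.5 ± 9.77 and 79.4 ± 6.17 CPM (n = 5 each), a log2 fold change of 0.02 (95% interval -0.18 to 0.21; edgeR adjusted p = 0.996). The signal-sharing receptor Il6st had a log2 fold change of 0.01 (95% interval -0.13 to 0.15), and Socs3, the feedback inhibitor that Stat3 induces, one of 0.24 (95% interval -0.38 to 0.85) at about 1 CPM. Of the 17 genes of the NF-kappaB and TGF-beta list, 16 were found and 13 tested, 7 higher and 6 lower, with 0 at an unadjusted p under 0.05; Il1a, Il1b and Tnf, inflammatory cytokines that microglia release, were below the filter.

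Other genes linked to reactive astrocytes were spread around 0. Of 32 listed, 30 were found and 25 tested, with 10 higher, 15 lower and a median log2 fold change of -0.07. None passed the adjustment, and 2 of the 25 had an unadjusted p under 0.05 in edgeR, where 5.66% of all genes did. Mt2A, a metal-binding metallothionein, was at 41.4, 50.7, 45, 49 and 54.3 CPM in untreated and at 63.3, 66.6, 79.1, 62 and 88.2 CPM in RG2833 libraries. Each RG2833 value of Mt2A lay above each untreated one; groups without overlap, in either direction, were found for 1% of all genes and for 0 of the 8 tested members. Its log2 fold change was 0.58 (SE 0.11; edgeR unadjusted p = 0.000354, adjusted 0.841). Chi3l1, a secreted chitinase-like protein of astrocytes, was at 176 ± 20.3 and 212 ± 23.6 CPM (n = 5 each), with a log2 fold change of 0.27 (SE 0.10; edgeR unadjusted p = 0.0236, adjusted 0.841). The filament gene Nes, nestin, was at 18.9 ± 1.86 and 21.5 ± 2.36 CPM, with a log2 fold change of 0.19 (95% interval -0.02 to 0.40), close to that of Gfap in size. Complement C3 was at 95.1 ± 28 and 96.9 ± 17.9 CPM, with a log2 fold change of 0.03 (95% interval -0.40 to 0.45).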

How the data were processed

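Per the labels' protocols, hippocampal RNA was purified on RNeasy columns and sequenced from stranded mRNA libraries (Kapa). The submitters' processing notes name bcl2fastq 2.17, Bowtie2 2.1.0, RSEM 1.2.15, edgeR and the build rn6, with no roles; the annotation is not given in the sources used here. The first deposited table holds RSEM expected counts per gene, of which 11.6% were not whole. The second, deposited by the authors, holds a signal, CPM on a TMM-scaled library size; 100% of its values above 0 were whole multiples of 1 read per library (tolerance 0.01), and 99.9% equalled the rounded expected counts of the same gene name.

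Counts were rounded and fitted in edgeR 4.0.16 (R 4.3.3) as untreated against RG2833, after filterByExpr (minimum count 10, total 15), with TMM scaling, robust quasi-likelihood F tests and Benjamini-Hochberg adjustment over 12161 genes at 0.05. Standard errors and 95% intervals come from the F statistic. CPM use the scaled sum of tested genes, and log2 CPM a prior count of 2. Exact permutation tests are two-sided over all 252 regroupings of 5 and 5 libraries, with a smallest p of 0.00794. With 1 library left out there were 126 regroupings. Without the 2 choroid-rich libraries there were 70, and the smallest p was 0.0286. Correlations used 100000 permutations. The edgeR fit was tested on simulated counts and the exact permutation test on fixed numbers, while the other fits were not tested in this way. Other settings were DESeq2 1.42.0, limma 3.58.1 (voom with sample weights, and log2 of the deposited CPM + 0.5), 2 scalings, 2 filters, a replicate block and left-out libraries.

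Named genes are the members, genes of the listed sets at an unadjusted p under 0.05, 9 signalling and astrocyte genes, and the 5 genes most like Gfap. Ttr, Col1a1, Igf2, Foxj1, Tmem212, Rarres2 and the 5 genes most like Vim fall outside this rule and were chosen after their values were seen. Other genes are named only as examples of their list, as list members below the filter, or as relatives of Serpina3n. The members and lists were chosen with earlier results of these data known. The AP-1 and GC box motifs, the fit on recovered reads, the pairs other than those with Gfap, and the share of all genes on the relative scale were added after the data were seen. No 2 libraries were alike within sampling noise: over 45 pairs the chi-square per gene was at least 7.2. The labels describe each sample as a rat; litters and batches are not stated.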

Additional observations from a re-analysis of the deposited data

Results flagged for a closer look

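For each tested member and group, the gap of the highest or lowest library to its nearest neighbour was compared with 0.71 of the group's range on the log2 CPM scale. Of 16 sets of 5 values, 3 exceeded it, where chance gives about 1 in 20 sets, or 0.8. Timp1 in untreated replicate 2 was high at 4.41 CPM. The remaining 4 values of that group lay at 1.1 to 1.56 CPM, and the gap was 0.758 of its range. Steap4 in RG2833 replicate 1 was high at 1.94 CPM, against 0.448 to 0.689 CPM, a gap of 0.725. Osmr in RG2833 replicate 3 was low at 1.09 CPM, against 1.87 to 2.16 CPM, a gap of 0.785, on 17 counts.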

How the results depend on the processing

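Over 20 alternative fits, 0 members passed the adjusted threshold in each, and Gfap, Vim and Cp kept their direction. Over all genes the adjusted count was 0 in 19 of them and 7 in DESeq2. The count of genes at an unadjusted p under 0.05, 688 with all libraries, was 401 with the replicate block, 1266 in limma-voom with sample weights, and 375 (without RG2833 replicate 4) to 1732 (without untreated replicate 3) over left-out libraries, with 424 without RG2833 replicate 5. The count of members at that threshold, 2, was 1 with the block, in limma-voom and in limma on the deposited CPM, and 0 without the 2 choroid-rich libraries. Over left-out libraries it ran from 0 (without RG2833 replicate 3) to 3, with 1 without untreated replicate 2 or 4 or RG2833 replicate 2, 4 or 5. The median log2 fold change of the members ran from -0.338 to 0.036 over left-out libraries, the last without untreated replicate 2; the cause was not tested.

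Directions that turned, as log2 fold changes: over left-out libraries Cd44 ran from -0.164 to 0.067 (above 0 without untreated replicate 4, and 0.038 without RG2833 replicate 2), Steap4 from -0.829 to 0.145, Timp1 from -0.386 to 0.301 and S1pr3 from -0.074 to 0.121. Steap4 and Timp1 turned without untreated replicate 2, S1pr3 without untreated replicate 3. Timp1 was 0.168 without the 2 choroid-rich libraries. In limma-voom Osmr was 0.081, S1pr3 -0.004 and Timp1 0.161. Without the choroid-rich libraries the r of Gfap was -0.145 with Cd44, 0.178 with S1pr3 and 0.358 with Timp1. The causes were not tested. With at least 1 CPM in 5 libraries, Steap4 was not tested and has no value.

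Replicate numbers are shared by the groups, but the labels state no pairing. Deviations of same-numbered libraries correlated at -0.26, -0.115, -0.487, -0.0339 and -0.195, and 0 of the 5 untreated libraries correlated best with their own number, so the numbers were not taken as pairs. With the replicate block, Vim relative to the homeostatic genes was -0.981 and Cp -1.022 (exact sign-flip p = 0.125 for both); with 5 pairs this test cannot go below 0.0625, so it could not pass the threshold and says nothing of stability. Counts were at most 5 in a library for Serpina3n and Lcn2, and at most 86 for Steap4, Timp1 and Osmr.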
